A study of Mus musculus with 2 samples.

Results

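Conflux arterial endothelium (conflux AE) is the class in which the arterial cells of the embryonic aorta come together before they turn toward blood formation. Its members here were the cells that the deposited table of cells assigned to conflux AE, with no other criterion. They numbered 333 of 8405 cells, of which 188 of 4451 came from the wild-type library and 145 of 3954 from the SP3-null library.

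Cells were sorted at embryonic day 10.5 from dissected dorsal aorta regions. Parents were heterozygous for Sp3 (Sp3+/-), with C57Bl6/J x B6129SF1/J as the strain background. Embryos of each genotype were pooled, and how many is not given in the sources used here. Sorting kept Ter119-negative endothelial cells positive for CD31, CD144 and ESAM and low or negative for CD41. Each pool was captured once by 3' droplet sequencing, which counts transcripts as unique molecular identifiers (UMIs). The SP3-null embryos inherited the allele from both parents, so that by label no tissue, the endothelium included, had SP3. With 1 library per genotype, effects of the genotype, of the pooled embryos and of the capture cannot be told apart, and nothing below has a replicate check or a test. CPM are the UMIs of a gene per 1000000 UMIs of the summed cells. All intervals are at the 95% level and cover counting error only.

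During the endothelial to hematopoietic transition, arterial endothelium (AE) passes through conflux AE to pre-hemogenic endothelium (pre-HE), hemogenic endothelium (HE) and the blood cells of the intra-aortic clusters (IAC). Arterial identity is kept by Notch signalling, in which the ligand DLL4 on one cell activates NOTCH1 on its neighbour and switches on HEY and HES repressors through the DNA-binding protein RBPJ. RUNX1 marks the later hemogenic step. SP3 is a zinc finger transcription factor that binds GC-rich promoter sites known as GC boxes.

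Conflux AE cells were shallower than most of their neighbours. The median depth was 9258.5 UMIs per wild-type cell and 8864 per SP3-null cell, against 14682 and 15659 over all cells of the libraries, and close to pre-HE at 9269 and 9172. The summed conflux AE cells held 2129937 and 1483283 UMIs, with 7.68% and 7.97% as the median mitochondrial share. The libraries shared 5 cell barcodes, none of them of a conflux AE cell. The deposited table has more cells in the AE classes than the study lists for them, so that shares with AE in the denominator depend on which arterial cells are counted. AE values sum the Wnt-high and Wnt-low AE classes. These held, in that order, 467 and 472 cells in the wild-type library and 574 and 348 in the SP3-null library. The mix thus differed between the libraries, and every library ratio in AE includes this difference.

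Of the markers of conflux AE, Gja5 and Dll4 were high in the class, Hey2 and Cd44 were low to intermediate, and Runx1 and Ptprc had next to no UMIs. Gja5, which encodes the arterial gap junction protein connexin 40 (chromosome 3, 97032402 to 97053634), stood at 377 CPM (351 to 404) in the conflux AE of the wild-type library and at 356 CPM (326 to 388) in that of the SP3-null library. Pairs of values below keep this order. In AE it was at 7.0 and 4.52 CPM. The level in pre-HE was higher still, at 618 and 572 CPM. The gene was thus nearly silent in AE, high in conflux AE, and lower by 0.71 and 0.69 log2 units in conflux AE than in pre-HE. Dll4, the Notch ligand (chromosome 2, 119325784 to 119335666), was at 135 CPM (120 to 152) and 129 CPM (112 to 149), against 55.7 and 54.4 CPM in AE and 124 and 109 CPM in pre-HE. It separated conflux AE from AE and not from pre-HE. Hey2, a Notch-induced repressor (chromosome 10, 30832359 to 30842783), was at 20.2 CPM (14.6 to 27.2) and 18.2 CPM (12 to 26.5). AE held 5.43 and 4.74 CPM of it and pre-HE 124 and 136 CPM, so that most of its range lay after conflux AE. Cd44, the hyaluronan receptor (chromosome 2, 102811141 to 102901669), was at 34.7 CPM (27.3 to 43.6) and 20.2 CPM (13.6 to 28.9), between AE at 3.19 and 2.05 CPM and pre-HE at 82.6 and 65.1 CPM. Runx1 was represented by 1 UMI in wild-type and 0 UMIs in SP3-null conflux AE, and Ptprc, the pan-leukocyte CD45 gene, by 0 in both. These levels describe the class and test nothing, since cells were assigned to classes from the same transcripts.

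**Figure D1:**
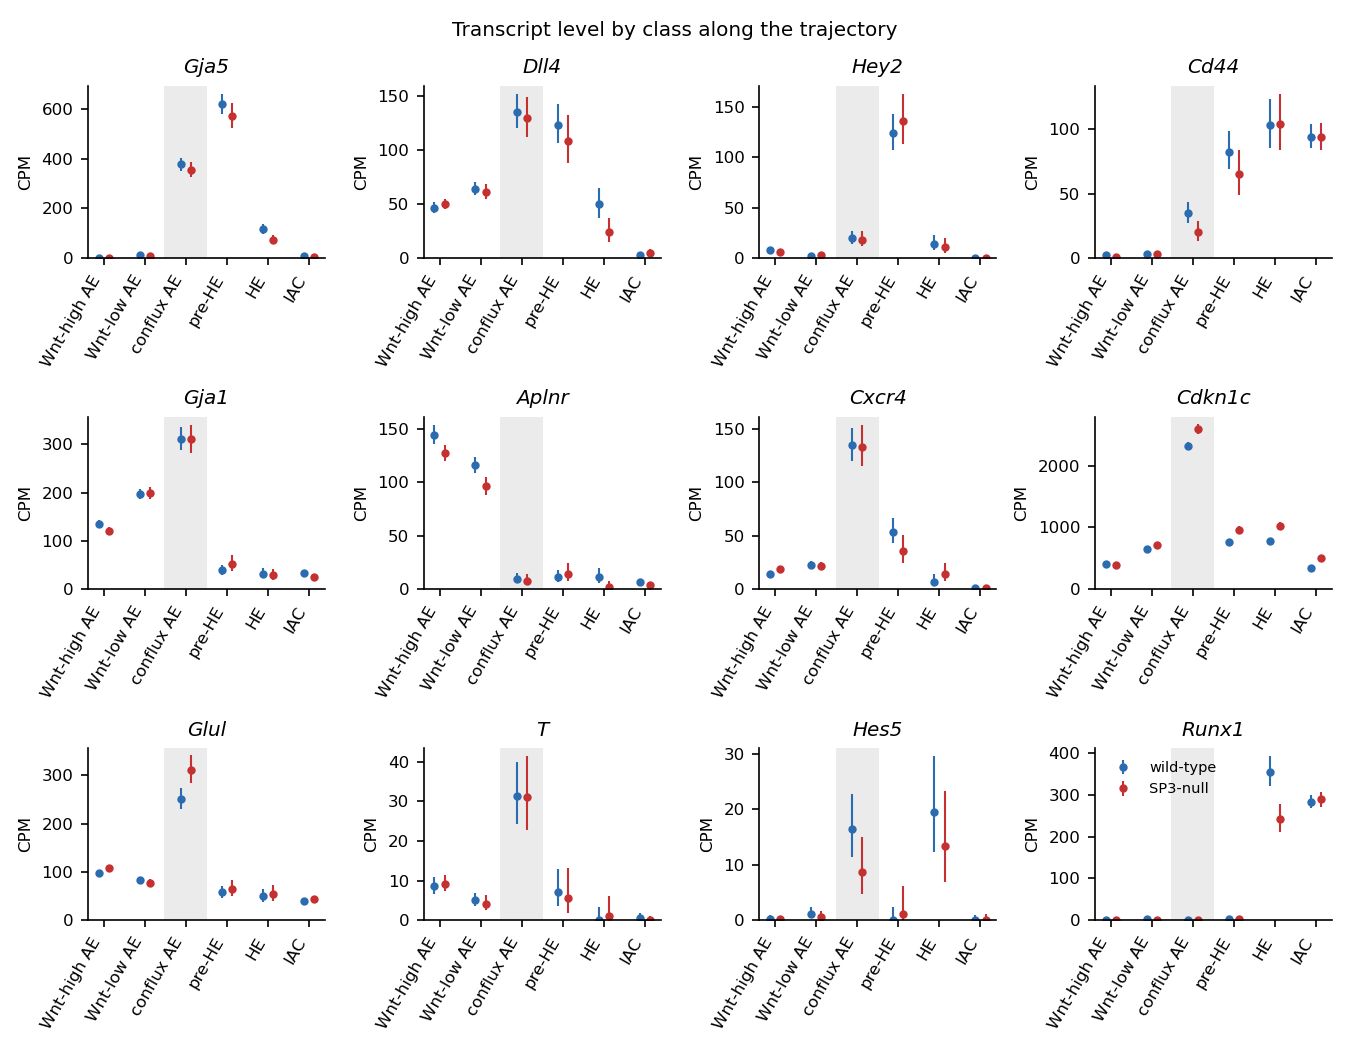
CPM of 12 genes in the 6 classes from Wnt-high AE to IAC (bars are exact Poisson intervals of the summed UMIs, conflux AE shaded). Gja5 and Dll4 are high in conflux AE and pre-HE, Hey2 in pre-HE, and Cxcr4, Cdkn1c, Glul and T are highest in conflux AE in both libraries.

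Most conflux AE cells carried Gja5, and a minority carried Hey2 or Cd44. At least 1 Gja5 UMI was found in 82.4% of wild-type and 73.1% of SP3-null conflux AE cells, or 71.4% and 58.5% after thinning to 5000 UMIs. In Wnt-low venous endothelium, which should lack connexin 40 and is deeper (median 14294 and 14475 UMIs), the unthinned shares were 0.5% and 0.9%. Dll4 was found in 70.7% and 67.6% of conflux AE cells (thinned 52.1% and 41.5%), above the 23.2% and 21.4% of Wnt-low venous cells. Hey2 was found in 14.9% and 13.8% (thinned 10.0% and 9.4%), against 64.0% and 57.6% of pre-HE cells and 2.3% and 1.0% of Wnt-low venous cells. Cd44 was found in 27.7% and 17.2% (thinned 20.0% and 9.4%), against 52.9% and 37.0% of pre-HE cells and 1.8% and 1.3% of Wnt-low venous cells. At this depth a cell without a UMI may still carry the transcript.

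The promoter sequences of the 4 markers are shown because SP3 acts at GC boxes and RBPJ carries the Notch signal, and both motifs can be read in them. Each run is the 250 bases before the start in the RefSeq promoter table of the GRCm38.p6 assembly, 5′ to 3′ on the strand of the gene. The windows are chr3:97032152-97032401 on the plus strand for Gja5, chr2:119325534-119325783 on the plus strand for Dll4, chr10:30842784-30843033 on the minus strand for Hey2 and chr2:102901666-102901915 on the minus strand for Cd44. Capitals mark the GC box core GGGCGG or CCGCCC and the RBPJ core TGGGAA or TTCCCA, searched on both strands, and no match of one overlaps a match of the other.
Gja5: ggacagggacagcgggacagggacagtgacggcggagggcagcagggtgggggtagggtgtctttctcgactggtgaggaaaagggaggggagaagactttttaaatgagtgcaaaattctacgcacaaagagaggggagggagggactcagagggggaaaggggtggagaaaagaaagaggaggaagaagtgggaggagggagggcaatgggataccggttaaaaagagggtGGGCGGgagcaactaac
Dll4: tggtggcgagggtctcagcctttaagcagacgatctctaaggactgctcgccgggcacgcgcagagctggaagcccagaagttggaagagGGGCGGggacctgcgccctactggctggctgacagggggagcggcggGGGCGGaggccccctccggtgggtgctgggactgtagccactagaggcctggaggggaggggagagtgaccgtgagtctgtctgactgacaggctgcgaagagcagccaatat
Hey2: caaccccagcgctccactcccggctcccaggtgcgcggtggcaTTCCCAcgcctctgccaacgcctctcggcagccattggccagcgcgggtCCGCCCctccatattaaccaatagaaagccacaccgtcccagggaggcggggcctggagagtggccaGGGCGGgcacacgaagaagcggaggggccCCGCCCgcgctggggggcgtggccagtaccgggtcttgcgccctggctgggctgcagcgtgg
Cd44: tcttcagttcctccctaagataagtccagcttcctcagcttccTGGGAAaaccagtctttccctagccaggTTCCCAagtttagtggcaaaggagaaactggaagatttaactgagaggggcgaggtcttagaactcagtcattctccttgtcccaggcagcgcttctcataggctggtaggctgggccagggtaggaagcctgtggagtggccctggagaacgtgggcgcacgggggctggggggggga
The Gja5 window held 1 GC box, the Dll4 window 2, the Hey2 window 3 and the Cd44 window 0. The RBPJ core occurred 1 time before Hey2, 2 times before Cd44 and not before Gja5 or Dll4. Their GC content was 56.4% for Gja5, 65.6% for Dll4, 71.6% for Hey2 and 56.4% for Cd44. Over all 32851 windows of the same length in the table, 32.7% held a GC box and 21.6% an RBPJ core. A match describes these letters and says nothing of binding.

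The first comparison asked how conflux AE differs from AE. In both libraries arterial and Notch genes, basement membrane genes and the cell cycle inhibitor Cdkn1c were higher in conflux AE, and Wnt target and mitosis genes were lower. Of 8730 genes with at least 200 UMIs over both classes and both libraries, 223 were at least 2-fold above AE in both libraries (2.55%) and 213 at least 2-fold below (2.44%). The median gene differed by -0.01 log2 units in the wild-type and 0.00 in the SP3-null library.

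Arterial genes made up the most uniform group above AE. Their sum was 5672 and 5657 CPM, against 1661 and 1641 CPM in AE. Of 20 measured members, 16 were at least 2-fold above AE in both libraries (background 2.55%), with 0 below (background 2.44%). Gja4, which encodes connexin 37, was at 1232 and 1249 CPM against 267 and 244 CPM in AE. Nrp1, a coreceptor for VEGF and semaphorins, was at 797 and 839 CPM against 310 and 302 CPM. Both were high in every library sum of conflux AE, with no overlap of counting intervals with AE. Efnb2, the arterial ephrin ligand, was at 472 and 425 CPM against 152 and 145 CPM in AE. Sox17, an endothelial SoxF factor, was at 413 and 383 CPM against 149 and 157 CPM. Mecom, a transcription factor of blood stem cells and arterial endothelium, was at 397 and 362 CPM against 89.9 and 82.0 CPM. Against pre-HE the same list was nearly level, with 1 of 21 measured members at least 2-fold above (1.4% of all genes) and 4 below (1.58%).

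Within the Notch pathway, receptors and ligands were moderately above AE and the targets varied. Receptors, ligands and modifiers summed to 0.74 and 0.75 log2 units above AE, with 2 of 9 measured members at least 2-fold above (background 2.55%). Notch1 was at 334 and 341 CPM, against 178 and 165 CPM in AE. Jag1, a ligand of the Jagged type, was at 71.4 and 82.2 CPM, close to AE at 56.0 and 72.4 CPM and below pre-HE at 190 and 223 CPM. Hey1, the target with the most UMIs, was at 275 and 252 CPM against 72.7 and 74.8 CPM in AE. Nrarp, a feedback inhibitor of Notch, was at 97.2 and 87.6 CPM against 51.1 and 51.7 CPM. Hes1 did not share this pattern, at 53.5 and 39.1 CPM against 67.3 and 74.9 CPM in AE. Hes5 was at 16.4 and 8.76 CPM from 35 and 13 UMIs, against 0.747 and 0.353 CPM in AE and 0 and 1.12 CPM in pre-HE. In HE it was at least as high, at 19.6 and 13.4 CPM. Its UMIs were found in 10.1% and 6.2% of conflux AE cells (thinned 7.1% and 5.7%) and in 0.58% and 0.15% of Wnt-low venous cells. The targets thus did not move as 1 block: Hey1, Nrarp and Hes5 were above AE in both libraries and Hes1 below.

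Wnt target genes were lower in conflux AE than in AE. The list summed to -1.43 log2 units relative to AE in the wild-type and -1.16 in the SP3-null library. Of 9 measured members, 5 were at least 2-fold below in both (background 2.44%). AE includes Wnt-high AE, a class named for its high Wnt targets, so that part of this gap can be built into the classes. The list is not compared with Wnt-low AE alone here. Lef1, a transcription factor that carries the Wnt signal, was at 24.9 and 58.0 CPM against 109 and 140 CPM in AE. Nkd1, a feedback inhibitor, was at 5.63 and 10.1 CPM against 47.3 and 82.8 CPM. Ccnd1, which encodes cyclin D1, was at 98.1 and 109 CPM against 252 and 228 CPM in AE and 42.9 and 35.9 CPM in pre-HE. Ccnd1 thus lay between its neighbours on the trajectory.

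Cell cycle genes were lower in sum, and the inhibitor Cdkn1c was higher. Mitosis genes summed to 819 and 1152 CPM in conflux AE against 2388 and 2230 CPM in AE. Of 17 measured members, 8 were at least 2-fold below in both libraries (background 2.44%). DNA replication genes were lower by 0.87 and 0.56 log2 units in sum, with 3 of 16 members at least 2-fold below (background 2.44%). Mki67, a marker of cycling cells, was found in 17.6% and 14.5% of conflux AE cells (thinned 10.0% and 13.2%), against 54.4% and 45.1% of Wnt-low AE cells. The Wnt-low AE shares are unthinned and come from deeper cells (median 13336.5 and 14195 UMIs), which widens this gap. Cdkn1c, which encodes the imprinted inhibitor p57 (chromosome 7, 143458339 to 143461059), was at 2324 CPM (2260 to 2390) and 2587 CPM (2506 to 2670) in conflux AE, against 529 and 509 CPM in AE. It was found in 98.9% and 98.6% of conflux AE cells. The G1 list it belongs to summed to 1.24 and 1.39 log2 units above AE through this gene, while the median member was at -0.11 and -0.19.

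Genes of the vessel wall and of BMP signalling were above AE. Basement membrane genes summed to 0.77 log2 units above AE in both libraries. Col4a1, a type IV collagen chain, was at 2103 and 2019 CPM against 1173 and 1227 CPM in AE, and Col18a1, the collagen that yields endostatin, at 1193 and 1233 CPM against 440 and 447 CPM. BMP and TGF-beta signalling genes summed to 0.57 and 0.54 log2 units above AE, with 3 of 13 members at least 2-fold above (background 2.55%). Id1, a BMP-induced inhibitor of DNA binding, was at 431 and 384 CPM against 166 and 174 CPM. Smad6, an inhibitory SMAD, was at 45.1 and 62.7 CPM against 7.47 and 10.4 CPM. Blood flow response genes summed to 0.81 and 0.88 log2 units above AE with 2 of 8 members at least 2-fold above (background 2.55%). Among them Cav1, the caveolae protein, was at 243 and 237 CPM against 79.7 and 67.3 CPM, while Klf2 was at 380 and 399 CPM against 265 and 246 CPM and Nos3 at 73.7 and 64.0 CPM against 42.3 and 40.4 CPM. Glycolysis genes were lower by 0.45 and 0.48 log2 units in sum, with 1 of 13 members at least 2-fold below (background 2.44%). Hypoxia genes were level with AE, at -0.03 and 0.10 log2 units.

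Besides Gja5, the genes most above AE included membrane, matrix and transcription factor genes, ranked by the smaller of the ratios in the 2 libraries. Cavin2, a caveolae coat protein, was at 34.7 and 65.4 CPM against 1.29 and 0.989 CPM in AE. Aqp1, the water channel, was at 43.2 and 44.5 CPM against 1.63 and 1.70 CPM, and Slc45a4, a solute carrier, at 110 and 109 CPM against 4.62 and 4.95 CPM. Both were as high in conflux AE as in pre-HE, where Aqp1 was at 38.4 and 33.7 CPM and Slc45a4 at 87.8 and 79.7 CPM. The transcription factor genes Sox6, at 52.1 and 46.5 CPM, and Gata6, at 70.0 and 73.5 CPM, were at 1.70 to 3.82 CPM in AE. Tmem100, a BMP-induced membrane protein, was at 94.4 and 179 CPM against 4.08 and 12.1 CPM in AE and 397 and 509 CPM in pre-HE. Vegfc, the lymphatic growth factor, was at 221 and 220 CPM against 26.2 and 31.3 CPM, and Serpinf1, which encodes PEDF, at 189 and 209 CPM against 22.6 and 23.5 CPM. Ltbp4, Slc18a2, Tm4sf1, Dmd, Palld and Prss23 completed the 15, with conflux AE levels of 36.2 to 179 CPM and AE levels of 2.11 to 15.8 CPM.

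The genes most below AE included Apln and Aplnr, which encode a signal of sprouting endothelium and its receptor. Apln, the ligand, was at 2.35 and 3.37 CPM in conflux AE against 37.6 and 45.5 CPM in AE. Aplnr, its receptor, was at 9.86 and 8.09 CPM against 130 and 116 CPM. Ligand and receptor were thus both low in conflux AE of both libraries. Kcne3, a potassium channel subunit, was at 8.92 and 7.42 CPM against 103 and 101 CPM, and Abcc9, a subunit of another potassium channel, at 1.88 and 2.02 CPM against 17.8 and 18.0 CPM. Gm38832 and Tgfbi, an integrin-binding matrix protein, had no UMI in conflux AE. Set against 3 UMIs per library, which are 1.41 and 2.02 CPM, Tgfbi was at least 5.50-fold and 5.63-fold lower than in AE. Gm38832 was at least 9.21-fold and 8.88-fold lower. Adamtsl2, St8sia1, Ccdc141 and Gxylt2 completed the 10, each with 5 or fewer UMIs per library in conflux AE. For Ccdc141 and Gxylt2 the AE level was that of Wnt-high AE: against Wnt-low AE alone the SP3-null ratio was above 0. Venous genes were close to AE in sum, at 1024 and 1152 CPM against 1177 and 1162 CPM, a log2 ratio of -0.20 (-0.27 to -0.14) and -0.01 (-0.08 to 0.06). Of 8 measured members, 3 were at least 2-fold below AE in both libraries (background 2.44%), namely Aplnr, Nr2f2 and Nrp2. Nr2f2, the venous fate factor COUP-TFII, was at 8.45 and 15.5 CPM against 51.6 and 45.6 CPM, and Nrp2 at 15.5 and 23.6 CPM against 89.0 and 84.1 CPM.

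Transcripts of other cell types were few in conflux AE. All macrophage markers were at 0 CPM in both libraries. Neural markers summed to 1.88 and 0.674 CPM, mesenchyme markers to 1.88 and 10.1 CPM, epithelial markers to 2.35 and 0.674 CPM and IAC markers to 1.41 and 0 CPM. Erythroid markers summed to 136 and 140 CPM, against 93.9 and 75.8 CPM in AE, mostly from the embryonic globins Hbb-y and Hba-x, while Alas2 and Klf1 were at 0.939 CPM or below. Without cells carrying markers of another type, which left 187 of the 188 wild-type cells, the wild-type log2 ratio of erythroid markers to AE went from 0.54 to -0.61. Smooth muscle markers summed to 73.7 and 38.4 CPM against 7.54 and 6.64 CPM in AE (pre-HE 444 and 150 CPM), and came mostly from Tagln. Of the Tagln UMIs, 30.6% and 46% lay in 3 cells per library. With cells carrying markers of another type left out, 221 genes were at least 2-fold above AE and 208 below in both libraries, of which 219 and 206 were among those counted with all cells.

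A small set of genes was higher in conflux AE than in all 8 other classes, the classes before and after it on the trajectory included. In both libraries 517 of 4708 genes with at least 100 UMIs in conflux AE were above every other class (11%), and 30 of them by at least 1.5-fold (0.637%). The gene with the largest margin was T, which encodes the T-box factor brachyury (chromosome 17, 8434423 to 8442496). It was at 31.5 and 31.0 CPM in conflux AE, against 6.79 and 7.35 CPM in AE and 7.16 and 5.61 CPM in pre-HE. Its UMIs were found in 27.1% and 25.5% of conflux AE cells (thinned 15% and 17.0%), against 1.4% and 1.2% of Wnt-low venous cells. The transcript was thus low but spread over about 1 in 4 cells in each library. Glul, which encodes glutamine synthetase, was at 252 and 311 CPM against 90.4 and 96.4 CPM in AE and 57.9 and 65.1 CPM in pre-HE. Cxcr4, the receptor of the chemokine CXCL12 (chromosome 1, 128588199 to 128592299), was at 135 and 133 CPM against 18.7 and 19.8 CPM in AE and 54.0 and 35.9 CPM in pre-HE. It was found in 64.4% and 57.2% of conflux AE cells (thinned 47.1% and 38.7%), against 1.3% of Wnt-low venous cells in both libraries. Cdkn1c was 2.54-fold above its next class, HE, in the library with the smaller margin.

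The other genes of this set were lower in level and of mixed function. Sorbs2, an actin-linked adaptor, was at 113 and 91.0 CPM, and Cthrc1, a secreted collagen triple helix protein, at 49.3 and 38.4 CPM. Msx1, a homeobox factor, was at 52.6 and 45.8 CPM, and Madcam1, an addressin that binds leukocyte integrins, at 53.1 and 39.1 CPM. Egfl8 was at 73.2 and 54.6 CPM, and 8430408G22Rik at 275 and 218 CPM. The smaller of the 2 libraries' margins over the next class was 3.36-fold for T, 2.59-fold for Glul, 2.5-fold for Cxcr4 and between 1.74-fold and 2.48-fold for the others except Cdkn1c. Serpinb6a, Adarb1, Tpgs2, Gadd45b and Vsir completed the 15.

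The comparison with pre-HE asked what is lost and gained in the next step. Conflux AE was closest to pre-HE of all classes by the share of genes that differed at least 2-fold, at 3.97% of 3224 genes in the wild-type and 3.41% of 2345 genes in the SP3-null library. The shares were 6.27% and 6.35% for Wnt-high AE, 6.45% and 6.48% for Wnt-low AE, 17.6% and 18.2% for HE and 31.2% and 31.3% for IAC. The step from AE into conflux AE was thus wider by this measure than the step out of it into pre-HE, and HE stood further away than either. Of 4300 genes with at least 200 UMIs, 60 were at least 2-fold above pre-HE in both libraries (1.4%) and 68 at least 2-fold below (1.58%).

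Genes above pre-HE were mostly ones that AE also expressed. Gja1, which encodes connexin 43, was at 311 CPM (288 to 336) and 311 CPM (283 to 341) in conflux AE, 166 and 151 CPM in AE and 39.0 and 52.7 CPM in pre-HE. Slc2a1, the glucose transporter GLUT1, was at 688 and 1072 CPM against 101 and 254 CPM in pre-HE. Kitl, which encodes stem cell factor, was at 256 and 243 CPM against 61.8 and 52.7 CPM, level with AE at 252 and 251 CPM. These genes were level with AE or above it in conflux AE and lower in pre-HE. Tmem255a, Vwa1, Filip1, Col15a1, a basement membrane collagen, Esm1, a tip cell proteoglycan, and Tubb2b were likewise above pre-HE, with log2 ratios between 1.68 and 3.16.

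Genes below pre-HE were nearly silent in conflux AE or intermediate. Pde3a, a cyclic nucleotide phosphodiesterase, had 2 and 0 UMIs in conflux AE and stood at 135 and 113 CPM in pre-HE. Adgrg6, an adhesion receptor, had 7 and 0 UMIs against 109 and 116 CPM. Measured against 3 UMIs, both were at least 56.0-fold lower in SP3-null conflux AE than in pre-HE. Nkx2-3, a homeobox factor, was at 9.39 and 2.70 CPM against 202 and 113 CPM in pre-HE, and Isl1, a LIM homeobox factor, at 5.63 and 15.5 CPM against 63.1 and 178 CPM. Fbn1, which encodes fibrillin-1, was at 29.6 and 30.3 CPM against 245 and 267 CPM, and Ctsh, a lysosomal protease, at 47.4 and 33.7 CPM against 515 and 395 CPM. Htra1 and Pdlim1 were lower by 2.63 to 4.75 log2 units. Acta2, smooth muscle actin, was at 5.16 and 4.72 CPM against 232 and 35.9 CPM, with all its conflux AE UMIs in 3 or fewer cells per library.

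Read along both steps, 4282 genes could be compared with AE and pre-HE. A ratio of at least 2-fold in both libraries placed 20 above AE and below pre-HE, 10 above both, and 131 above AE but not 2-fold from pre-HE in the same direction in both libraries. The 20 intermediate genes included Fn1, the matrix protein fibronectin, Vwf, von Willebrand factor, and Edn1, endothelin-1, which was at 101 and 116 CPM in conflux AE, 23.4 and 34.3 CPM in AE and 467 and 392 CPM in pre-HE. A further 3 genes, Ccnd1, Clec1b and Piezo2, were below AE and above pre-HE. By the same rule 20 were below AE without a call against pre-HE, and 47 were above and 33 below pre-HE without a call against AE. The other 4018 were within 2-fold of both or differed between libraries.

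Cells of conflux AE varied among themselves, but nearly all had the arterial profile. After thinning to 5000 UMIs, which left 140 wild-type and 106 SP3-null cells, arterial genes made up 0.02% of UMIs in the lowest wild-type cell, 0.57% in the median and 1.44% in the highest. In the SP3-null library these values were 0.06%, 0.52% and 1.46%. The AE medians were 0.16% and 0.14%. Of the conflux AE cells, 97.1% and 97.2% were above the AE median and 82.9% and 72.6% above the 90th percentile of AE, while 9 and 17 cells exceeded every AE cell. The class therefore overlapped the upper end of AE, with its medians at or just under the pre-HE median of 0.57%.

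Mitosis transcripts were concentrated in few conflux AE cells. The median cell held 0.02% in both libraries, against 0.14% and 0.08% in AE. No mitosis UMI was found in 37.9% and 39.6% of thinned conflux AE cells (31.9% and 24.8% unthinned), and the 14 and 11 cells with the most mitosis UMIs held 68.7% and 69.0% of them. The highest cell reached 0.96% in the wild-type and 1.44% in the SP3-null library. The lower mitosis sum of conflux AE thus went with fewer cells rich in these transcripts in both libraries.

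**Figure D2:**
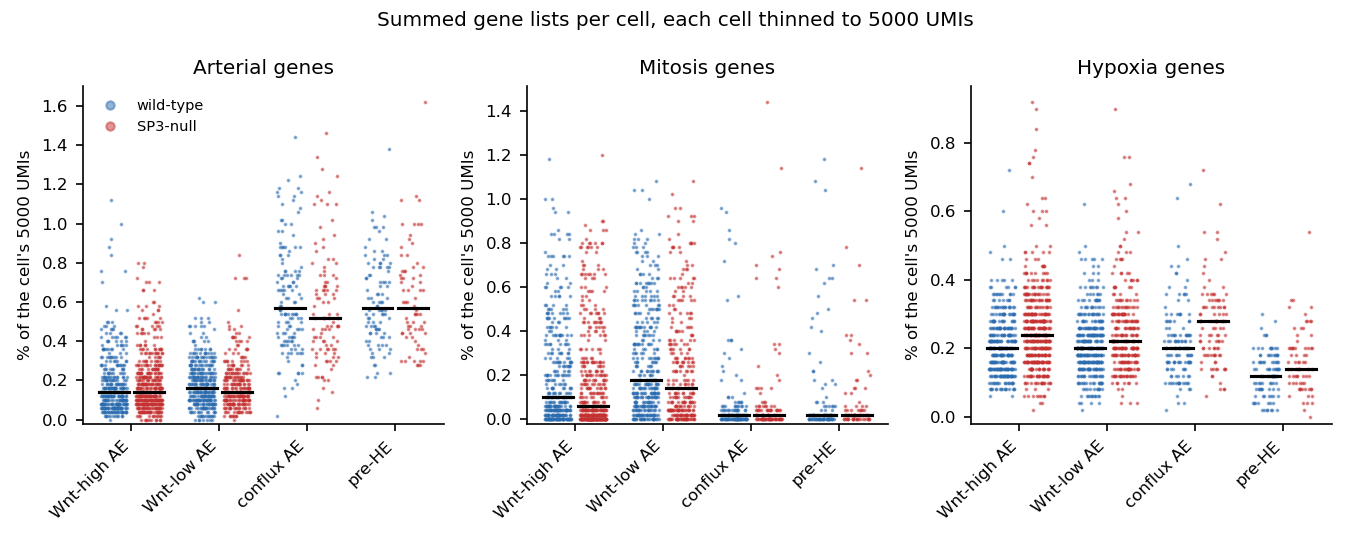
Percent of the 5000 UMIs of each cell that belong to arterial, mitosis and hypoxia genes, for thinned cells of 4 classes and both libraries (1 point per cell, black bars are medians). Conflux AE has an arterial median of 0.57% and 0.52% against 0.16% and 0.14% in AE, and a mitosis median of 0.02% in both libraries with a few cells near 1%.

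Some genes were more uneven between conflux AE cells than counting alone gives. The variance of the thinned UMIs divided by their mean, which counting alone puts near 1, was 1.02 for the median of 3322 genes and 1.74 at the 95th percentile. For Stmn2, a microtubule-destabilising stathmin at 610 and 467 CPM, against 81.4 and 71.4 CPM in AE, it was 6.40 and 5.85. It was 5.17 and 6.51 for Cdkn1c, 3.98 and 4.43 for Slc2a1 and 3.69 and 4.56 for Fn1. Among the connexins it was 3.04 and 3.02 for Gja4, 2.34 and 2.78 for Gja5 and 2.0 and 1.80 for Gja1. For genes this uneven, the counting intervals of summed UMIs are too narrow. The genes quoted here were chosen after their values were seen.

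The second question was whether conflux AE differs in the SP3-null library, first in its share of cells. It made up 13.0% (11.3% to 14.8%) of 1450 wild-type and 11.1% (9.45% to 12.9%) of 1306 SP3-null cells from AE to IAC. The difference was -1.86 percentage points, with a counting interval that included 0 (-4.34 to 0.626). Cells are not replicates, and the difference was not tested here. Among cells from conflux AE to IAC the shares were 36.8% and 37.8%, and the difference 0.970 points (-5.56 to 7.54). Of conflux AE and pre-HE cells together it was 58.0% and 61.2%, higher by 3.16 points (-5.33 to 11.5). The direction therefore depended on whether AE was in the denominator, and only AE and conflux AE alone gave an interval below 0, at -3.09 points (-6.15 to -0.0260).

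Sp3 itself (chromosome 2, 72936430 to 72980446) was detected in SP3-null conflux AE. It was at 47.4 CPM (38.6 to 57.6) from 101 UMIs and 37.8 CPM (28.5 to 49.0) from 56 UMIs. The log2 ratio was -0.33 (-0.83 to 0.16) in conflux AE and -0.39 in AE. It was -0.71 among conflux AE cells with Y-linked UMIs and 0.45 among cells with Xist. The intervals of the 2 libraries overlapped, and the direction differed between these groups of cells. The sources used here do not give the extent of the deletion, and a 3' count can include transcripts that make no protein, so that this level does not check the genotype label.

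Few genes differed between the libraries in conflux AE. Of 4708 genes, 67 were at least 1.5-fold higher in the SP3-null library with the ratio alone as the rule (1.42%) and 90 at least 1.5-fold lower (1.91%). In AE, which holds more UMIs, 12 of the same genes were at least 1.5-fold higher (0.255%) and 30 lower (0.637%). The 95% counting interval of the ratio in conflux AE minus that in AE lay above 0 for 292 genes (6.2%) and below 0 for 270 (5.73%). Over 4708 genes, counting error alone puts some such intervals off 0, so not all of these genes need differ. The median log2 ratio in conflux AE was -0.01, and 95% of genes lay between -0.54 and 0.49. By any amount, 47.8% of genes were higher and 52.2% lower.

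Arterial, connexin and flow response genes were nearly level between the libraries when summed over all conflux AE cells, and less so within groups of cells. The arterial list had a log2 ratio of 0.00 (-0.04 to 0.04), with 9 of 19 measured members above and 10 below and 1, Tmem100, at least 1.5-fold above. Connexins had a ratio of 0.01, and blood flow response genes of 0.00 (-0.10 to 0.10), with Klf2 at 0.07 (-0.08 to 0.23), Nos3 at -0.20 (-0.59 to 0.17) and Cav1 at -0.04. Among cells with Y-linked UMIs and no Xist, connexins were at -0.14 (-0.25 to -0.03) and flow response genes at 0.27 (0.12 to 0.43). Among cells with Xist and no Y-linked UMIs, these ratios were 0.16 (0.04 to 0.27) and -0.15 (-0.30 to 0.01), and that of arterial genes 0.12 (0.05 to 0.18). Thinned to 5000 UMIs, arterial genes were at -0.10 (-0.17 to -0.03). Gja5 had a ratio of -0.08 (-0.24 to 0.08) and Dll4 of -0.06 (-0.33 to 0.21), so that counting intervals included 0 for both. Hey2 was at -0.15 with 43 and 27 UMIs. Over the alternatives Gja5 ranged from -0.43 to 0.20, Dll4 from -0.47 to -0.01 and Hey2 from -0.26 to 0.50. Cd44 was the marker with the widest difference, with 74 and 30 UMIs and a ratio of -0.78 (-1.44 to -0.15) in conflux AE, -0.64 in AE and -0.34 in pre-HE. It was between -1.33 and -0.76 under all alternatives run. Notch targets had a ratio of -0.19 (-0.34 to -0.04), with Hes1 at -0.45 (-0.94 to 0.02). This sign turned to 0.18 among cells with Xist and no Y-linked UMIs.

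Mitosis genes were higher in SP3-null than in wild-type conflux AE, and not in AE. Their sum had a log2 ratio of 0.49 (0.39 to 0.59) in conflux AE, -0.10 in AE and -0.65 in pre-HE. The ratio in conflux AE was 0.59 above that in AE (0.49 to 0.69), where the mix of Wnt-high and Wnt-low cells differed between the libraries. All 12 measured members were above wild-type (background 47.8%) and 4 by at least 1.5-fold (background 1.42%). Ube2c, a ubiquitin-conjugating enzyme of mitotic exit, was at 103 and 154 CPM, with a ratio of 0.58 (0.31 to 0.85). Cenpf, a kinetochore protein, was at 50.7 and 96.4 CPM, with a ratio of 0.93 (0.56 to 1.30). Top2a, a topoisomerase, was at 79.3 and 117 CPM, with a ratio of 0.56 (0.24 to 0.87). Mki67 was at 47.9 and 52.6 CPM, with a ratio of 0.13 (-0.31 to 0.57). Since most of these UMIs lay in the 14 and 11 cells above, the counting intervals are too narrow. The median cell held the same 0.02% in both libraries, and the ratio was 0.38 without the 10 cells of each library richest in these transcripts. For Cenpf, 37.0% and 34.3% of the UMIs lay in 3 cells, and among cells with Y-linked UMIs and no Xist its ratio was 0.04. DNA replication genes had a ratio of 0.08.

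Hypoxia and transporter genes were higher in the SP3-null library. Hypoxia genes had a ratio of 0.38 (0.32 to 0.45) in conflux AE and 0.26 in AE, with 8 of 10 measured members above (background 47.8%) and 2 at least 1.5-fold above (background 1.42%). Per thinned cell their median was 0.20% in wild-type and 0.28% in SP3-null conflux AE. Slc2a1 had a ratio of 0.64 (0.54 to 0.74), and 0.37 in AE. Ldha, which encodes lactate dehydrogenase A, had a ratio of 0.36 (0.23 to 0.49), while Pgk1, a glycolysis enzyme, was at -0.11 (-0.28 to 0.06) and Ero1l, an oxidase of protein folding, at -0.56 (-1.08 to -0.06). The members thus did not all share the direction of the sum. Barrier and transporter genes, among which Slc2a1 counts again, had a ratio of 0.40 (0.34 to 0.47), with the tight junction gene Cldn5 at 0.19 (0.09 to 0.28). After thinning to 5000 UMIs the ratio of this list was 0.20 (0.08 to 0.31).

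Actin and contractile genes were lower in SP3-null conflux AE. Their sum had a ratio of -0.21 (-0.23 to -0.19) in conflux AE and -0.02 in AE, and 10 of 12 measured members were below wild-type (background 52.2%), 1 of them, Tagln, by at least 1.5-fold (background 1.91%). Smooth muscle markers, mostly Tagln, had a ratio of -0.94 (-1.40 to -0.49). Actb, cytoplasmic beta-actin, was at 9588 and 7711 CPM, with a ratio of -0.31 (-0.35 to -0.28). Between cells its thinned UMIs had a variance over mean of 9.22 and 5.45, so that this interval is too narrow. Actg1, gamma-actin, had a ratio of -0.14 (-0.19 to -0.09). Vim, which encodes vimentin, had a ratio of 0.00 (-0.06 to 0.06). The actins themselves, which hold the most UMIs of this list, were thus below wild-type, and vimentin was level. HOX genes had a ratio of -0.45 (-0.65 to -0.26), and -0.50 in AE, with Hoxb4 at -0.79 (-1.37 to -0.24). After thinning to 5000 UMIs the HOX ratio in conflux AE was -0.20 (-0.52 to 0.12).

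Some interferon-stimulated transcripts and fibronectin transcripts were higher in SP3-null conflux AE and in AE alike. Bst2, the antiviral protein tetherin, was at 162 and 256 CPM in conflux AE, with a ratio of 0.66 there and 0.59 in AE. Ifitm3, another antiviral membrane protein, was at 208 and 301 CPM, with ratios of 0.53 and 0.46. Ifitm2, the member with the most UMIs, went the other way, with a ratio of -0.18 (-0.32 to -0.05). The list summed to 0.20 (0.10 to 0.29) in conflux AE, and to 0.13 (-0.03 to 0.28) after thinning to 5000 UMIs. Fn1, the main member of the list of genes of the endothelial to mesenchymal transition, was at 511 and 728 CPM, with ratios of 0.51 (0.39 to 0.63) and 0.50.

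In conflux AE the share of cells with female transcripts was higher in the SP3-null library, with overlapping counting intervals. Of the conflux AE cells with UMIs of only Xist, the noncoding RNA of the inactive X chromosome, or only of 4 Y-linked genes, 53 of 122 wild-type cells (43.4%, 34.5% to 52.7%) and 70 of 115 SP3-null cells (60.9%, 51.3% to 69.8%) had Xist. Both were found in 2 and 4 cells and neither in 64 and 26. The other classes did not share 1 direction. The share with Xist was 53.2% and 63.5% in Wnt-high AE, 54.2% and 47.7% in Wnt-low AE and 48.6% and 50% in pre-HE. Xist had a ratio of 0.96 in conflux AE and 0.31 in AE. Lists were therefore also compared within each group of cells. The mitosis ratio was 0.56 in cells with Y-linked UMIs and 0.47 in cells with Xist. Hypoxia genes were at 0.46 and 0.29, barrier and transporter genes at 0.40 and 0.46, interferon genes at 0.35 and 0.21 and actin genes at -0.21 and -0.18. These lists kept their sign in both groups. Wnt targets did not, at -0.20 and 0.85 around a pooled 0.40, nor did HOX genes, at 0.23 and -1.17 around -0.45, nor G1 genes, at -0.12 and 0.49 around 0.15. Arterial genes were at -0.06 and 0.12.

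**Figure D3:**
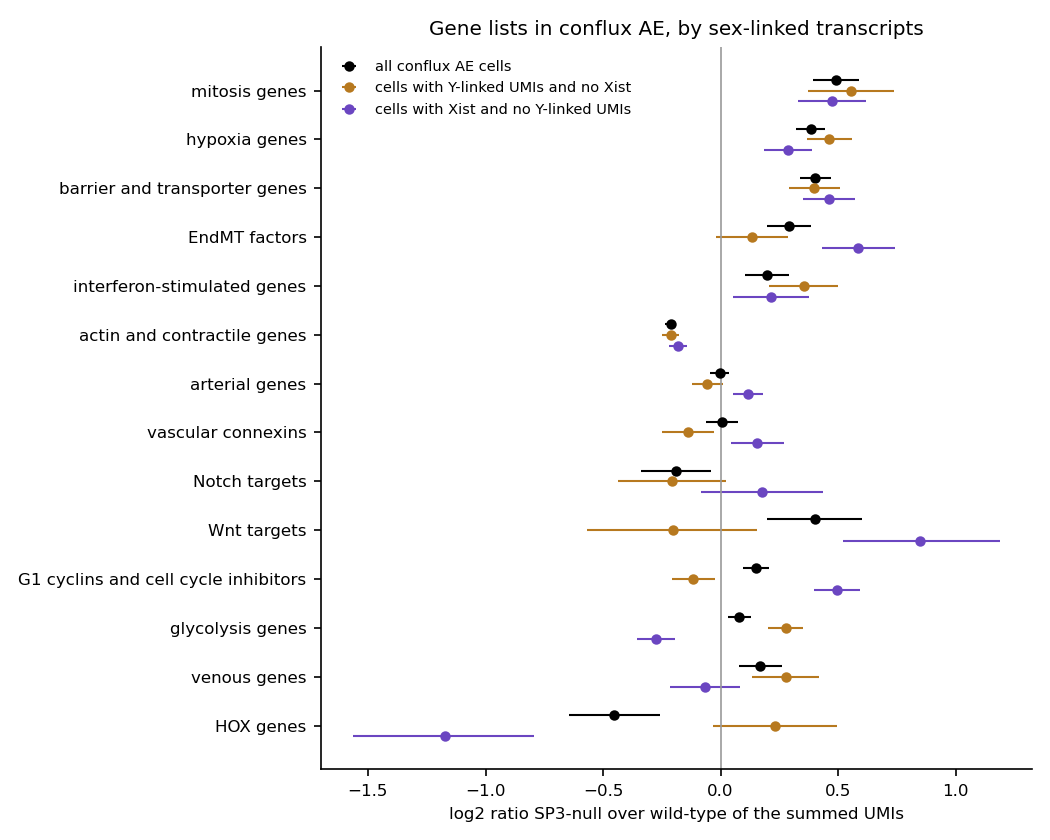
Log2 ratio SP3-null over wild-type of the summed UMIs of 14 gene lists in all conflux AE cells, in cells with Y-linked UMIs and no Xist, and in cells with Xist and no Y-linked UMIs (bars are counting intervals). Mitosis, hypoxia and barrier genes lie above 0 and actin genes below 0 in both groups, while the others, except interferon genes and EndMT factors (genes of the endothelial to mesenchymal transition), change side.

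Of the single genes higher in the SP3-null library, Pdk1 and Lef1 led. Pdk1, the kinase that inhibits pyruvate dehydrogenase (chromosome 2, 71873215 to 71903858), had 57 and 103 UMIs, or 26.8 and 69.4 CPM. Its ratio was 1.38 (0.90 to 1.87) in conflux AE, 0.57 in AE and 1.72 in pre-HE. It lies 1.07 Mb from Sp3, and was found in 23.9% and 41.4% of conflux AE cells (thinned 10.0% and 31.1%). Lef1 had 53 and 86 UMIs and a ratio of 1.22 (0.71 to 1.74), against 0.36 in AE, and was found in 17.0% and 34.5% of cells (thinned 8.6% and 22.6%). Both were above wild-type under all 11 alternatives run, between 0.99 and 1.76 for Pdk1 and between 0.82 and 1.70 for Lef1. Of these alternatives, halving or doubling the UMI minimum cannot alter the ratio of a gene. The TMM and DESeq2 factors described below shift all genes by the same small amount. In SP3-null conflux AE, Lef1 was still below AE of either library.

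Tmem100 and Cavin2, both among the genes most above AE, were also among the highest ratios. Tmem100 was at 94.4 and 179 CPM, a ratio of 0.92 (0.65 to 1.19) in conflux AE and 1.57 in AE, and between 0.46 and 1.02 under the alternatives. Cavin2 was at 34.7 and 65.4 CPM, a ratio of 0.91 (0.46 to 1.37), while in AE it was -0.38. Plac1, an X-linked gene known from placenta, had a ratio of 0.93 (0.62 to 1.24) in conflux AE and 0.08 in AE, and between 0.17 and 1.53 under the alternatives. Prc1, Nusap1 and Spc24, genes of the spindle and kinetochore, were at 0.84 to 0.93, and Gm47283 and Susd6 at 0.83 to 0.85. With Xist and Cenpf these were the 12 highest, each chosen by its ratio.

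Of the single genes lower in the SP3-null library, Ripk1 and Fos led. Ripk1, a kinase of cell death and inflammatory signalling (chromosome 13, 34002225 to 34035170), had 90 and 20 UMIs, or 42.3 and 13.5 CPM. Its ratio was -1.65 (-2.43 to -0.94) in conflux AE, -0.75 in AE and -1.80 in pre-HE, and between -2.08 and -1.08 under the alternatives. Its annotated end overlaps that of Serpinb6a (chromosome 13, 33917918 to 34002794), which had a ratio of -0.51. Fos, an immediate early factor, had 85 and 19 UMIs and a ratio of -1.64 (-2.44 to -0.91), against -0.96 in AE. It was found in 15.4% and 9.7% of cells (thinned 12.9% and 3.8%). Of 9 measured immediate early and heat shock genes, Fos included, 6 were below wild-type (background 52.2%), with Fos and Junb, at -0.73 (-1.17 to -0.30), at least 1.5-fold below (background 1.91%), and Hsph1 at least 1.5-fold above. Jun was at 0.34 (0.13 to 0.55) and the sum of the list at -0.04. Egr1 and Zfp36, which had fewer than 100 UMIs, were at -2.54 and -0.96.

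The other genes with the lowest ratios had 74 to 153 UMIs in wild-type and 21 to 52 in SP3-null conflux AE. They were Acot7, a thioesterase, at -1.43, Rnh1, the ribonuclease inhibitor, at -1.27, Npdc1 and Cda at -1.15, Exosc1, an exosome subunit, at -1.14, Zfp462 at -1.08, Fhl2, a LIM domain protein, at -1.06, Clec1a, an endothelial lectin, at -1.03, Tagln at -1.0 and Prrg3 at -0.99. In AE all were also below wild-type, between -0.93 and -0.18. All 24 genes kept their sign under every alternative that gave a ratio, down to 0.04 for Cenpf and -0.20 for Npdc1. For Xist these were 10, since cells chosen to lack Xist give it no ratio. The alternatives reuse the cells from which the genes were picked, so that a kept sign is no independent check. Changing the UMI minimum could not alter their ratios. Ranked at both ends of 4708 ratios from shallow sums, the genes are described and not tested.

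**Figure D4:**
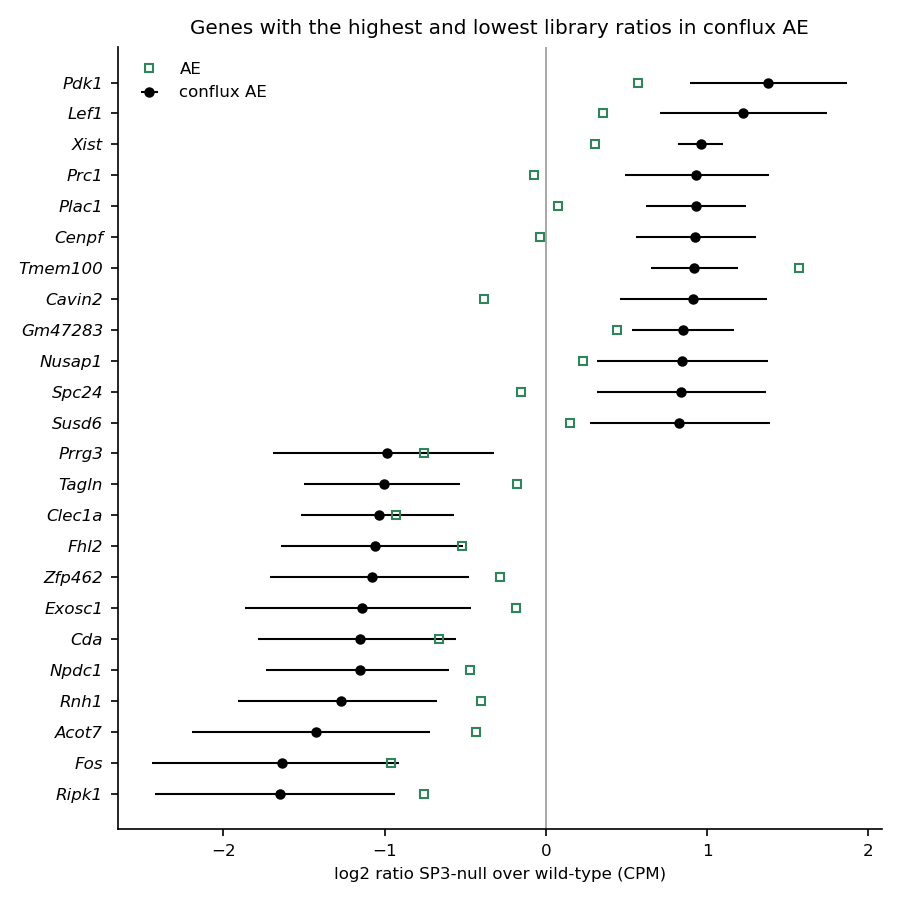
Log2 ratio SP3-null over wild-type of the 12 genes with the highest and the 12 with the lowest ratio in conflux AE (black points with counting intervals), with the ratio of the same genes in AE (green squares). Pdk1 has a ratio of 1.38 in conflux AE and 0.57 in AE, and the genes were chosen by their conflux AE ratio alone.

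Genes near the targeted locus were counted as well. Of 29 genes within 10 Mb of Sp3, Sp3 included, 1 was at least 1.5-fold higher in SP3-null conflux AE (3.45%, against 1.42% of all genes) and 0 lower (against 1.91%). That gene was Pdk1, and the median ratio of the 29 was 0.00.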

How the data were processed

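Single-cell RNA-seq was performed by the authors with the Chromium 3' kit, version 3, on 1 wild-type and 1 SP3-null pool. Per the methods of the study, reads were aligned to mm10 (GRCm38) with Cell Ranger (version not given in the sources used here). Barcodes with fewer than 1000 UMIs or 1000 genes and contaminating types were removed. Each cell took the class of its nearest cells on a published map. The deposited matrix holds raw UMI counts for 27514 genes, and the deposited cell table gives library, class, total count of UMIs and mitochondrial fraction. The totals exceeded the matrix sums by 0 to 197 UMIs per cell (0.145% of UMIs). The lowest number of genes per cell was 998.

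UMIs were summed per class and library and divided by the sum of all genes (CPM). Intervals are exact Poisson for CPM, exact conditional for ratios, Clopper-Pearson for shares, and Newcombe for differences of shares, and cover counting error only. No test was made with 1 library per genotype, and cells were not used as replicates. Classes were compared for genes with at least 200 UMIs and libraries for genes with at least 100. Members, markers and gene lists were chosen with earlier results of these data known. Named are the 4 markers and Sp3, the 15 highest and 10 lowest genes against AE, the 10 highest and 10 lowest against pre-HE, the 12 highest and 12 lowest between libraries, the 15 with the largest margin over every other class, Xist, and, of each list, the 3 members richest in UMIs and the extremes of the library ratio. Other list members and the genes named in the account of both steps were picked after their values were seen. The ratio step was tested on simulated counts. No doublet caller was run, so doublets remain. Alternatives left out the deepest 5% of cells or cells with 2 or more markers of another type, used TMM factors (edgeR 4.0.16) or DESeq2 1.42.0 size factors, weighted cells alike, changed the UMI minimum or thinned cells to 3000 or 5000 UMIs. Splits of the lists by sex-linked UMIs, alternatives for genes highest in conflux AE and leaving out the 10 cells richest in mitosis UMIs were chosen after seeing the data. Analyses used Python 3.11.15, numpy 2.4.6, scipy 1.17.1, pandas 2.3.3 and R 4.3.3.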

Additional observations from a re-analysis of the deposited data

Results flagged for a closer look

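Mitosis genes had opposite signs in 2 classes beyond the counting interval of each. Their log2 ratio SP3-null over wild-type was 0.49 in conflux AE and -0.10 in AE, a gap of 0.59 (0.49 to 0.69). These intervals are too narrow, since most mitosis UMIs of conflux AE lay in few cells. With 1 library per genotype the gap was not tested. Mitochondrially encoded genes showed a smaller gap of the same kind, 0.14, from 0.08 in conflux AE and -0.06 in AE, likewise not tested. Their conflux AE ratio was 0.01 (-0.001 to 0.02) with each cell weighted alike and 0.02 after thinning to 5000 UMIs.

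Some lists lay on opposite sides of 0, beyond the counting interval in each group, in conflux AE cells with Xist and in those with Y-linked UMIs. The ratio in cells with Xist minus that in cells with Y-linked UMIs was 0.29 for vascular connexins, 0.61 for G1 cyclins and cell cycle inhibitors, -0.55 for glycolysis genes and -0.31 for immediate early and heat shock genes. These differences were not tested, and embryos, sexes and cells cannot be told apart within a pool.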

How the results depend on the processing

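The number of UMIs limited what could be seen in conflux AE. Counts of genes were compared with the main counts of 223 above and 213 below AE, 60 above and 68 below pre-HE, and 67 above and 90 below wild-type. Thinning to 5000 UMIs left 88 above and 110 below AE (82 and 81 shared with the main counts), 24 above and 25 below pre-HE, and 28 above and 33 below wild-type, of which 5 and 5 were shared with the main counts. Fewer genes reach the UMI minimum when thinned, 1985 in place of 4708 between libraries. Halving the minimum gave 117 below pre-HE, and 224 above and 291 below wild-type. Doubling it gave 32 above and 35 below pre-HE, and 23 above and 24 below wild-type. Against Wnt-low AE alone 140 genes were below, and the SP3-null ratios of Ccdc141 and Gxylt2 turned to 0.83 and 0.24. With each cell weighted alike 166 genes were below wild-type. Among cells with Xist and no Y-linked UMIs, 34 were. The other alternatives gave 152 to 323 above and 153 to 273 below AE, 51 to 89 above and 62 to 71 below pre-HE, 50 to 95 above and 63 to 93 below wild-type, and 22 to 34 genes at least 1.5-fold above every other class.

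The interval of the library ratio in conflux AE minus that in AE lay above 0 for 292 genes and below 0 for 270. It lay below 0 for 418 with each cell weighted alike, and above 0 for 116 and below 0 for 106 after thinning. Of 38 lists, 11 were above and 4 below wild-type beyond counting error, and 8 below with each cell weighted alike. The share of conflux AE differed by 0.970 points with AE left out of the denominator and by -3.09 to -0.557 in the other alternatives. Medians of arterial UMIs per cell were 0.57% and 0.52%, and 0.60% to 0.615% with other thinning. Without cells carrying markers of another type, erythroid markers in the wild-type library were at -0.61 relative to AE. Among cells with Y-linked UMIs the library ratio turned to -0.20 for Wnt targets, -0.12 for G1 genes and 0.23 for HOX genes, and among cells with Xist to -0.066 for venous genes, 0.18 for Notch targets and -0.28 for glycolysis genes. The cause of these changes was not tested. Among single genes and lists 1859 values stayed, 262 moved by more than their counting interval and 9, all named here, turned direction after a main value past the fold threshold or, for lists, with an interval off 0. Values short of that could also change sign, such as Sp3 from -0.33 to 0.45 among cells with Xist. The 1859 include ratios of single genes under another UMI minimum, which cannot alter them. No paired analysis was possible because there is 1 library per genotype, and none could be left out.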
